A study of Mus musculus with 6 samples.

Results

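Granzymes C to G are 5 serine proteases of the mouse, encoded by Gzmc, Gzmd, Gzme, Gzmf and Gzmg, and all 5 of these genes were found among the 32285 genes of both count matrices. They were chosen on readout: earlier results of the same data had shown them higher in the CD8 T cells of day 19 than in those of day 13, and higher in cells of expanded clonotypes than in cells alone in theirs. Both of those contrasts are therefore given below as descriptions of how the members were selected. The other contrasts use the same cells, so they too are given as values, with intervals for counting error and no test.

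The T cells came from intracranial tumors of CT2A, a mouse glioma line, in wild-type C57BL/6J mice aged 6 to 8 weeks, and were sorted for CD3 with CD4 or CD8. Tumors were taken at day 13 (16 mice, pooled by 4 for each replicate) and at day 19 (4 mice). Each day gave 1 capture of 10x 5' chemistry, from which libraries of gene expression, of antibody tags and of T cell receptors (TCR) were made, so each day was taken as 1 sample. No test between days was made, because the labels do not tie cells to the replicates they name. The receptor contigs of a day came in 4 tables, called contig sets here. The labels do not say that a set is a mouse, and 19 of 211 expanded clonotypes at day 13 and 66 of 208 at day 19 were also seen in another set of the same day, so sets are given as ranges and not as replicates.

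Granzymes are stored in the granules of cytotoxic lymphocytes together with perforin (Prf1), which lets them enter a target cell. Granzymes A and B are the best known of them, and granzyme B triggers apoptosis of the target. Granzymes C to G lie beside Gzmb in one gene cluster of the mouse genome, and in mouse T cells they are known to appear late in strong or prolonged stimulation. Chronic stimulation in tumors also drives CD8 T cells from a state that keeps the transcription factor Tcf7 to one with the inhibitory receptors Pdcd1 (PD-1) and Havcr2 (TIM-3), which is why the members are followed across these genes.

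In RefSeq's GRCm38.p6 annotation all 5 lie on the minus strand of chromosome 14, in the order Gzme (chr14:56117619-56120625), Gzmd (chr14:56129556-56132603), Gzmg (chr14:56156581-56159579), Gzmf (chr14:56205263-56211407) and Gzmc (chr14:56231397-56241647). Gzmn (chr14:56165786-56174612) lies between Gzmg and Gzmf, and Gzmb (chr14:56258836-56262334) follows Gzmc. The bases upstream of their starts are shown because these stretches are close copies of each other. All 5 members matched an entry of RefSeq's GRCm38.p6 start sites, and 105 bases of each upstream window follow, 5′ to 3′ on the minus strand. The annotated gene spans of Gzmc and Gzmd reach upstream of the start sites used for these windows, so the windows of these genes lie wholly (Gzmc) or in part (Gzmd) inside the spans given above, and other start sites may exist. Capitals mark a run of 20 bases that all 5 share and, where it is present, the motif TGACGTCA.
Gzmc, chr14:56234658-56234762: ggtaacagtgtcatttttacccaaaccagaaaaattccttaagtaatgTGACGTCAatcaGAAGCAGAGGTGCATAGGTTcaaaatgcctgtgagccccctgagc
Gzmd, chr14:56132598-56132702: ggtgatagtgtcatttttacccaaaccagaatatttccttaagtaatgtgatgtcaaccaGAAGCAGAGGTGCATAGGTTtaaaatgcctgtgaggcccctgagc
Gzme, chr14:56120631-56120735: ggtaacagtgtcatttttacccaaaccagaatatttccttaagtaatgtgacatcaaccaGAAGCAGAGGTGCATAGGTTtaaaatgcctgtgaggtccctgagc
Gzmf, chr14:56211433-56211537: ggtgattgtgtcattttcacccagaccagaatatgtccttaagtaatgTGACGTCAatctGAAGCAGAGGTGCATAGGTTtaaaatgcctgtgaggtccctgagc
Gzmg, chr14:56159600-56159704: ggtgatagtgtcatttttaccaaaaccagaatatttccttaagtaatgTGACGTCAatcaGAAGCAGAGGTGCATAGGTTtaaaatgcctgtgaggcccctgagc

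The shared run began between 45 bases (Gzmc) and 70 bases (Gzmf) before the start site. On either strand it was found in 5 of 32851 upstream windows of 250 bases, and those 5 were the members. Over 250 bases the members' 10 pairs were 71.5% to 94.8% identical, with Gzmd and Gzme the closest pair, whereas Gzmb was 44.6% to 50.9% identical to a member. TGACGTCA, which reads the same on both strands and is the full cAMP response element, was found in the windows of Gzmc, Gzmf and Gzmg and in 1.55% of all windows. TGTGGT (the core bound by Runx factors), searched on both strands, was found in all 5 members and in 14.05% of all windows. Neither TGANTCA (an AP-1 site, in 6.75% of windows) nor AGGTGT (a T-box core, in 11.8%) was found in a member's window on either strand. These matches describe letters in the windows and nothing more. The first 50 transcribed bases were 41.2% to 82.4% identical between members. The sources used here do not give how reads shared by such copies were assigned, or whether they were kept. The split of UMIs (unique molecular identifiers, each counting 1 captured RNA molecule) between the members is therefore uncertain, and their sum is used wherever possible. Shared reads that were not kept would be missing from the sum too.

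Cells were barcodes of the contig tables with at least 5000 gene UMIs and at most 10% mitochondrial UMIs, 4632 at day 13 and 3215 at day 19. A CD8 T cell had Cd8a or Cd8b1 UMIs but no Cd4 UMI (2959 and 1800 cells, median depth 7449 and 9846.5 UMIs), and a CD4 T cell the reverse (797 and 794 cells). No barcode stood in more than 1 contig table, and 28 barcode sequences occurred among the cells of both days. Because a deeper cell shows more genes, shares of positive cells were taken after thinning each cell at random to 5000 UMIs. No doublet caller was run.

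Gzmf and Gzmc made up nearly all of the members' UMIs in CD8 T cells, and UMIs of Gzmd, Gzme and Gzmg were rare. At day 19 the 1800 CD8 T cells held 21704 UMIs of Gzmf, 10577 of Gzmc, 591 of Gzmd, 425 of Gzme and 235 of Gzmg. At day 13 the 2959 CD8 T cells held 1224, 983, 73, 37 and 22. Gzmn, the neighbour inside the cluster, had no UMI in the CD8 T cells of either day, which allows a share of cells with a UMI of up to 0.101% at day 13 and 0.167% at day 19, taking 3 counts of the cells as the limit of a count of 0, for counting error only. The order of the members' UMI counts was the same on both days. At day 13, however, 1 cell of contig set 3 held 636 of the Gzmf and 124 of the Gzmc UMIs. Among the 15 day-13 cells with at least 10 member UMIs, Gzmf exceeded Gzmc in 7 and Gzmc exceeded Gzmf in 8. Gzmf made up 30.8%, 40.4%, 61.7% and 47.8% of member UMIs in the 4 sets of that day.

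The sum of the 5 rose from 82.1 counts per 1000000 gene UMIs (CPM; 95% interval 78.8 to 85.5 from the Poisson count) at day 13 to 1562 (1546 to 1579) at day 19, a log2 ratio of 4.25 (4.19 to 4.31). By contig set the sum was 51.4, 15.3, 116 and 169 CPM at day 13 and 1256, 2223, 665 and 1208 CPM at day 19. Every set of day 19 was thus above every set of day 13. The plot of levels by contig set shows the same for Gzmc, Gzmd, Gzme and Gzmf, while the ranges of Gzmg overlapped.

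**Figure D1:**
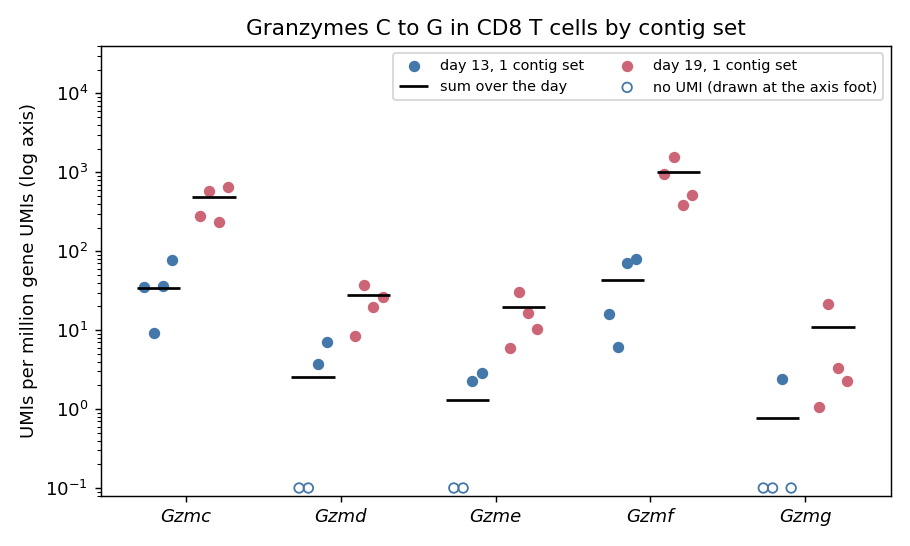
Each point is the level of a gene in the CD8 T cells of 1 contig set, in CPM on a log axis, the bar is the level over all CD8 T cells of the day, and open circles at the foot stand for sets with no UMI. Gzmf reached 1011 and Gzmc 493 at day 19, and Gzmd, Gzme and Gzmg stayed between 10.9 and 27.5.

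Member by member the log2 ratios of day 19 to day 13 lay between 3.42 (Gzmd, 3.07 to 3.80) and 4.56 (Gzmf, 4.47 to 4.64). That of Gzmg, 3.82, rested on few cells: it was 1.61 without contig set 2 of day 19, at least 6.14 without contig set 3 of day 13, and at least 1.63 without the 10 highest cells of each day. The others moved as well without those 10 cells, to 5.17 (Gzmc), at least 5.09 (Gzmd), 6.85 (Gzme) and 8.66 (Gzmf). At day 13 only 2 CD8 T cells had Gzmd and 5 had Gzme. All 5 members were past 2-fold, where 1.6% of 10638 genes with at least 100 UMIs were higher by 2 times or more, but this contrast chose them and nothing is read from it. The other genes of the granule did not share the difference. Among 16 listed granule genes 1 was higher by 2 times or more (Prf1, log2 ratio 1.02) and 2 were lower (Gzmk, -1.12, and Gzmm, -1.26). Gzmb, at 1386 CPM at day 13 and 1466 CPM at day 19, differed by a log2 ratio of 0.08 (0.06 to 0.10), and Gzma by -0.19 (-0.23 to -0.16). The median log2 ratio was 3.84 over the members, -0.09 over the granule list and -0.04 over all genes compared. In bulk sums such as these, more positive cells and more RNA per positive cell cannot be told apart, so both were counted.

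Both differed. After thinning, 66 of 2959 CD8 T cells carried a member UMI at day 13 (2.23%, 95% exact binomial interval 1.73 to 2.83) and 311 of 1800 at day 19 (17.3%, 15.6 to 19.1). By set the share was 1.49% to 3.60% at day 13 and 10.8% to 21.7% at day 19, and every set of day 19 was above every set of day 13. The share with Gzmc was 1.96% and 12.3%, that with Gzmf 0.575% and 11.9%, and that with Gzmd, Gzme or Gzmg each at most 0.611% on either day. In whole counts, cells with a member UMI held a median of 2 UMIs at day 13 and 14.5 at day 19.

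The RNA was concentrated in few cells. At day 19, 222 CD8 T cells with at least 10 member UMIs held 98.8% of all member UMIs, 17 cells held 50% of them, and the highest cell alone had 2622, which was 11.98% of its own 21885 gene UMIs. At day 13, 15 cells had at least 10 member UMIs, and the highest, with 837, held 35.8% of the day's member UMIs. The 10 highest cells held 87.1% of the UMIs at day 13 and 37.9% at day 19. The level at day 13 is therefore that of a few cells: without the 10 highest CD8 T cells of each day, an alternative added after seeing the data, the log2 ratio between the days was 6.52. It was 5.18 as a mean over cells and 3.65 without contig set 2 of day 19. Positive cells were also deeper than the others, with a median of 13189 against 8982 gene UMIs at day 19 and 10632.5 against 7428 at day 13.

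Within single cells the members overlapped more than if each were spread independently, but none of them marked the same cells as another. At day 19, in whole counts, 296 CD8 T cells had Gzmc and 246 had Gzmf, and 160 had both, where 40.5 would share both if the genes were spread independently. Of the 22 cells with Gzmd, Gzme or Gzmg, 20 also had Gzmc or Gzmf and 17 had both. All 7 cells with Gzmg had both Gzmc and Gzmf. The 3 rare members fell together as well: 11 of 15 cells with Gzmd had Gzme, and Pearson's r of log2(UMIs + 1) across the 1800 cells was 0.88 for Gzmd with Gzme and 0.62 for Gzmc with Gzmf. At equal depth, after thinning, r was 0.87 and 0.59, and 125 cells had both Gzmc and Gzmf where 26.3 would by independence. Between Gzmc or Gzmf and a rare member r in whole counts was lower, at 0.24 to 0.31. For such close copies the points may share reads, which was not tested. At day 13 all 5 cells with a rare member had both Gzmc and Gzmf.

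In the 22 cells with a rare member, Gzmc and Gzmf together had a median of 105.5 UMIs at day 19, and 3 of these cells had at most 1. In the 362 cells with Gzmc or Gzmf and no rare member the median was 13.5. A high sum did not require one of them, since 11 of 68 cells with at least 100 member UMIs had Gzmd, Gzme or Gzmg. In all, 5 cells at day 19 and 1 at day 13 carried all 5 members.

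**Figure D2:**
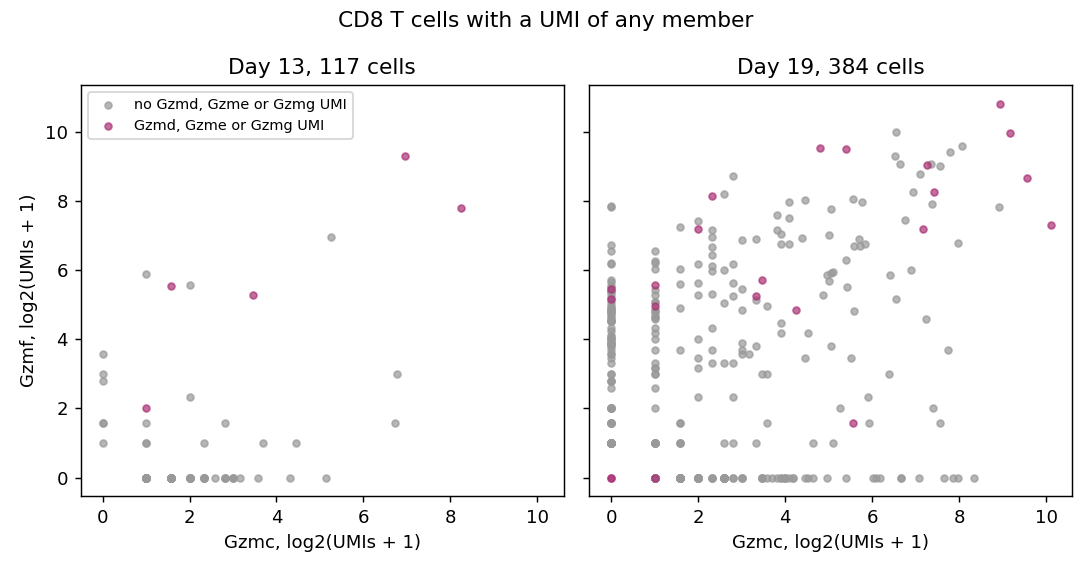
Each point is 1 CD8 T cell with a UMI of any member, with Gzmc on the horizontal and Gzmf on the vertical axis, both as log2(UMIs + 1), and purple points carry a rare member. At day 19 cells lie along both axes as well as between them, and most purple points carry both Gzmc and Gzmf.

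The balance of Gzmc and Gzmf was far from constant between cells. Among the 222 day-19 cells with at least 10 member UMIs, Gzmf exceeded Gzmc in 163 and Gzmc exceeded Gzmf in 58, while 52 had no Gzmc UMI and 31 no Gzmf UMI. The median share of Gzmf in the sum of both was 86.0%, with quartiles of 40.4% and 98.6%. Gzmf made up 76.6%, 69.6%, 58.9% and 42.5% of the member UMIs in the 4 sets of day 19. Set 4 was the one day-19 set in which Gzmc (656 CPM) was above Gzmf (514 CPM).

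The summed members, and Gzmc and Gzmf among them, were far lower in CD4 T cells. At day 19 the sum was 77.3 CPM (72.0 to 82.8) in 794 CD4 T cells, a log2 ratio of CD8 to CD4 of 4.34 (4.24 to 4.44), and CD8 was higher in 4 of 4 sets. Gzmc (4.86) and Gzmf (4.99) differed most, and 4 of 5 members were past 2-fold where 3.06% of 10233 genes were. Leaving out 1 contig set moved Gzmc to 4.19 (set 2) or 6.33 (set 3) and Gzmf to 3.31 (set 2) or 6.76 (set 4). Gzmd (1.44) and Gzme (1.11) differed less, and Gzmg, with 94 UMIs in CD4 and 235 in CD8 T cells, gave a log2 ratio of 0.26 (-0.09 to 0.62). Without the 10 CD8 T cells with most member UMIs, Gzmd (-1.48), Gzme (-1.16) and Gzmg (-4.79) turned to the CD4 side. Without contig set 2 Gzmd was at 0.31, Gzme at 0.05 and Gzmg at -2.86, and without contig set 3 they were at 3.70, 2.34 and 6.74. Gzme was at 0.25 without barcodes of more than 1 TRB or 2 TRA chains, and Gzmd at 0.54 without barcodes of 3 or more macrophage UMIs. As means over cells or over sets Gzmd (0.16 and 0.88) and Gzme (0.15 and 0.70) were under 2-fold. Gzmg was at -0.12 by the chain limit, -0.98 (-1.34 to -0.62) by the macrophage limit, -1.11 and -0.80 as means, and 6.33 (3.84 to 11.6) with at least 2 UMIs required for each class, so no direction held for it. Gzmb was also higher in CD8 T cells, by a log2 ratio of 1.37. The ratio of the sums was 3.04 without contig set 2 and 5.34 without contig set 3.

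Positive CD4 T cells were equally rare on both days, at 12 of 797 (1.51%, 0.78 to 2.62) and 12 of 794 (1.51%, 0.78 to 2.63). CD4 T cells were the deeper class, with a median of 10542.5 UMIs at day 19 and 8492 at day 13, so the CD8 share of day 19 lay above a CD4 share taken at the same thinned depth. The summed level rose from 24.4 to 77.3 CPM (log2 ratio 1.66, 1.43 to 1.89), but the 10 highest cells held 97.0% and 98.5% of the UMIs. Near-empty barcodes (1 to 100 gene UMIs, mostly free RNA) held the members at 22.7 CPM at day 13 and 349 CPM at day 19, near and above the CD4 levels. The part of free RNA in the CD4 values was not tested. The positive CD4 T cells of day 19 had a median of 46 macrophage and microglia UMIs and the others 12, with at least 3 in 66.7% and 60.5%, and at day 13 the medians were 1.5 and 1. Their part in the result was not tested. Of 4 members with at least 100 UMIs over both days, 3 were past 2-fold where 1.82% of 9426 genes were, and Gzmc was at -0.07 (-0.40 to 0.26). The Gzmc value was 3.25 without barcodes of 3 or more macrophage UMIs, 2.83 without contig set 3 of day 13 and -1.36 without contig set 3 of day 19. Without the latter set Gzmd (-0.79) and Gzme (0.59) were not past 2-fold higher either, and Gzmd was at -0.15 with at least 2 UMIs required for each class. Gzmd was also under 2-fold without contig set 2 (0.84) or 4 (0.98) of day 13. Gzme was at 0.46 (-0.44 to 1.36) without barcodes of 3 or more macrophage UMIs. Without contig set 3 of day 13 the ratio of the sums was 5.02 and without contig set 3 of day 19 it was 0.85, so the summed value rests on those sets.

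The rare members of CD4 T cells lay in few cells. A single day-19 cell with Foxp3, the transcription factor of regulatory T cells, held 93 of the 94 Gzmg UMIs of all CD4 T cells, and the highest Foxp3-positive cell had 296 member UMIs. The cell with the Gzmg UMIs was called CD4 on 1 Cd4 UMI. It left the class when at least 2 UMIs were required. Among 220 Foxp3-positive CD4 T cells of day 19, 4 were positive after thinning (1.82%), against 8 of 574 without Foxp3 (1.39%). At day 13 the 190 Foxp3-positive cells held 10 member UMIs, all of Gzmc and never more than 1 in a cell, which is 5.04 CPM. Gzmc was at 13.4 CPM in near-empty barcodes of that day, above the level in these cells, of which 7 were positive after thinning (3.68%). The 5 positive cells among 607 without Foxp3 (0.824%) belong to a group that held 189 member UMIs, 128 of them in 1 cell, and all the Gzmd (32) and Gzme (22) UMIs of the CD4 T cells of that day. Barcodes with both Cd4 and CD8 UMIs reached 4.08% positive at day 19 (10 of 245), and those with neither 2.66% (10 of 376), where the highest cell had 5 member UMIs.

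Among CD8 T cells of day 19 the members were low where Tcf7 was detected. States were called from the thinned counts of Pdcd1, Havcr2 and Tcf7. In the 238 cells with Pdcd1 and Havcr2 and without Tcf7, 42.4% were positive (36.1 to 49.0) and the sum was 4013 CPM. In the 423 cells with Pdcd1 and neither Havcr2 nor Tcf7, 31.7% were positive (27.3 to 36.3) at 2800 CPM. In the 117 cells with Pdcd1 and Tcf7 and without Havcr2, 5.13% were positive (1.90 to 10.8) at 66.3 CPM. Tcf7-positive cells with neither receptor were at 2.45% (1.31 to 4.16) and 13.0 CPM, an interval that holds the share of CD4 T cells. Both Tcf7-positive levels lay below the 349 CPM of near-empty barcodes of that day. Only 3 cells had all of Pdcd1, Havcr2 and Tcf7. Pdcd1-negative cells without Havcr2 or Tcf7 stood between, at 8.72% and 521 CPM, and the 76 with Havcr2 and no Pdcd1 at 26.3% and 2114 CPM. A cell without a UMI of one of these genes may still express it, so the groups are ranges of detection.

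**Figure D3:**
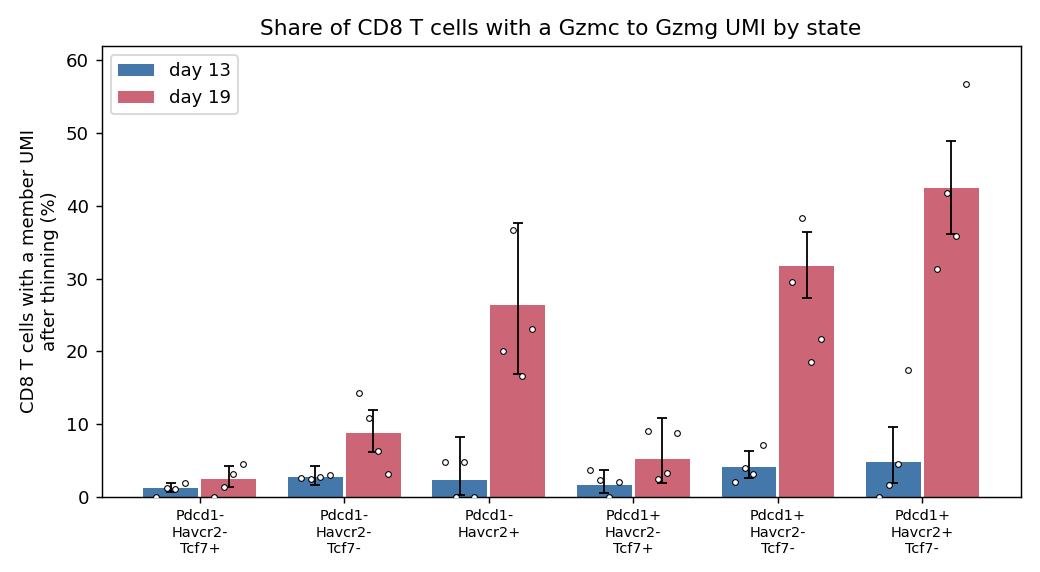
Bars give the percentage of CD8 T cells with a UMI of any member after thinning to 5000 UMIs, by state and day, with exact 95% binomial intervals, and small points are the contig sets. At day 19 the share was 42.4% in Pdcd1-positive Havcr2-positive Tcf7-negative cells and 5.13% in Pdcd1-positive Tcf7-positive Havcr2-negative cells.

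Between these 2 Pdcd1-positive states the log2 ratio of the summed members was 5.92 (5.63 to 6.23), in the same direction in 4 of 4 sets. All 5 members were past 2-fold, where 3.74% of 5325 genes were. The Tcf7-positive cells held 73 UMIs of Gzmc and 20 of Gzmf, for log2 ratios of 4.53 (4.197 to 4.89) and 7.50 (6.87 to 8.21). With states called from whole counts the order turned, at 6.19 (5.74 to 6.67) for Gzmc and 5.69 (5.43 to 5.96) for Gzmf. Gzmd, Gzme and Gzmg had no UMI in the Tcf7-positive cells and were higher in the others by a log2 ratio of at least 5.75, 4.69 and 4.75, taking 3 counts as the floor of the group. These bounds rest on few cells: without the 10 highest cells they were 1.30 for Gzmd and 1.82 for Gzme, Gzmg gave none, and without contig set 2 that of Gzmg was 2.48. Without contig set 4 the ratio of the sums was 6.92. Prf1 (4.05), Gzmb (2.92) and Gzma (2.69) differed in the same direction, and Gzmk by 0.17 (-0.04 to 0.39). Of 14 granule genes with enough UMIs, 4 were past 2-fold higher (these 3 and Nkg7, 1.20), and 1 lower, the serpin Serpinb6b (-1.46).

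The level in the Pdcd1-positive Havcr2-positive Tcf7-negative state was 3952, 3865, 3921 and 4511 CPM in the contig sets of day 19, where the level over all CD8 T cells ranged from 665 to 2223. Much of each value lay in 1 cell, as a count added after seeing the data gave: the highest cell of each set held 80.6%, 40%, 78.1% and 46.7% of its member UMIs in this state, and without it the levels were 814, 2349, 911 and 2537 CPM. At day 13 the same state gave 0, 18.9, 31.1 and 1722 CPM, with 574 of the 789 UMIs of set 4 in 1 cell, and 7 of 146 cells were positive (4.79%, 1.95 to 9.63). Within this state the days thus differed by a log2 ratio of 3.23 (3.13 to 3.34) in summed level. The day-13 side rests on few cells, since the 2 highest held 735 of its 819 member UMIs. Without the 2 highest cells of each day the levels were 45.3 CPM at day 13 and 2658 CPM at day 19. For Gzmb it was 0.37 (0.32 to 0.43). At day 13 the summed level was 427 CPM in this state and 3.28 CPM in the Pdcd1-positive Tcf7-positive one.

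Clone size went with the members at day 19, a contrast that also chose them. A clonotype was first taken as exactly 1 TRA and 1 TRB chain with the same nucleotide CDR3s within a set. The share of positive CD8 T cells was 5.67% (43 of 759) in cells alone in their clonotype, 26.9% in clonotypes of 2, 31.1% in those of 3 to 9 and 35.4% in those of 10 or more. At day 13 the same classes gave 1.95%, 3.82%, 2.63% and 5.56%, and the summed level of clonotypes of 3 or more was above that of single cells by a log2 ratio of 3.25 (3.10 to 3.41, 3 of 4 sets), with 837 of their 1850 member UMIs in 1 cell. The log2 ratio of the summed members between clonotypes of 3 or more and single cells was 2.89 (2.82 to 2.96) at day 19, in 4 of 4 sets. All 5 members were past 2-fold, where 3.79% of 8182 genes were. Gzmd and Gzmg, with no UMI in single cells, were higher in 1 of 4 sets each, and 1 cell of set 2 held all 154 Gzmg and 136 of 171 Gzmd UMIs of the larger clonotypes. Without contig set 2 it was 1.88. Among 15 granule genes with enough UMIs 6 were past 2-fold higher (Gzma, Gzmb, Gzmk, Prf1, Nkg7 and Stx11).

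That definition left out the clonotype with most member RNA. CD8 T cells with 2 TRA chains and 1 TRB chain held 14271 of the 33532 member UMIs of day 19, and 137 of these cells in contig set 2 were 1 clonotype (TRAV12-1 and TRAV13D-2 with TRBV5). It alone held 9013 UMIs, 26.9% of the day's CD8 total, and 68 of its cells were positive (49.6%, 41.0 to 58.3). With all productive chains defining a clonotype, a definition added after seeing the data, the share was 5.89% in single cells and 40.8% in clonotypes of 10 or more, and the log2 ratio between 3 or more and single was 2.77, higher in 3 of 4 sets. Without the cells of this chain set in any contig set of day 19, the log2 ratio between the days was 3.81. That of CD8 to CD4 was then 3.90. The same chain set was seen in 3 CD8 T cells of set 1, 1 of set 3 and 2 of set 4, and the cell in set 3 held 1752 member UMIs.

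Cells of this clonotype differed widely among themselves. Of the 137, 59 had no member UMI in whole counts, the median was 1 and the highest had 1122. Inside it the Havcr2-positive cells were not the higher ones: they were at 2576 CPM and 42.9% positive (24 of 56, 29.7 to 56.8), and the Havcr2-negative cells at 6253 CPM and 54.3% positive (44 of 81, 42.9 to 65.4), intervals that overlap for the shares. In the other 734 CD8 T cells of the same set the order was the reverse, with 39.7% of Havcr2-positive and 11.9% of Havcr2-negative cells positive. None of the 137 cells had a Tcf7 UMI after thinning.

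In all, 8 clonotypes of day 19 had at least 10 CD8 T cells in a set, and each had positive cells, from 27.7% to 54.5% of its cells with a median of 36.7%. They held 49.8% of the day's CD8 member UMIs. No clonotype was wholly positive. The clonotype of 33 cells with TRAV10 and both TRBV13-1 and TRBV13-3 held 2837 UMIs, and that of 27 cells with TRAV7D-2 and TRBV16 held 3030, of which 2622 were in 1 cell. At day 13, 8 of 14 such clonotypes had no positive cell. The highest share was in a clonotype of 32 cells in set 4, again with TRAV7D-2 and TRBV16, in which 8 cells were positive (25%, 11.5 to 43.4) and which held 874 of the day's 2339 member UMIs. The 3 clonotypes of at least 10 cells with these V genes, 1 at day 13 and 2 at day 19, had 3 different CDR3 pairs in nucleotides and in amino acids.

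**Figure D4:**
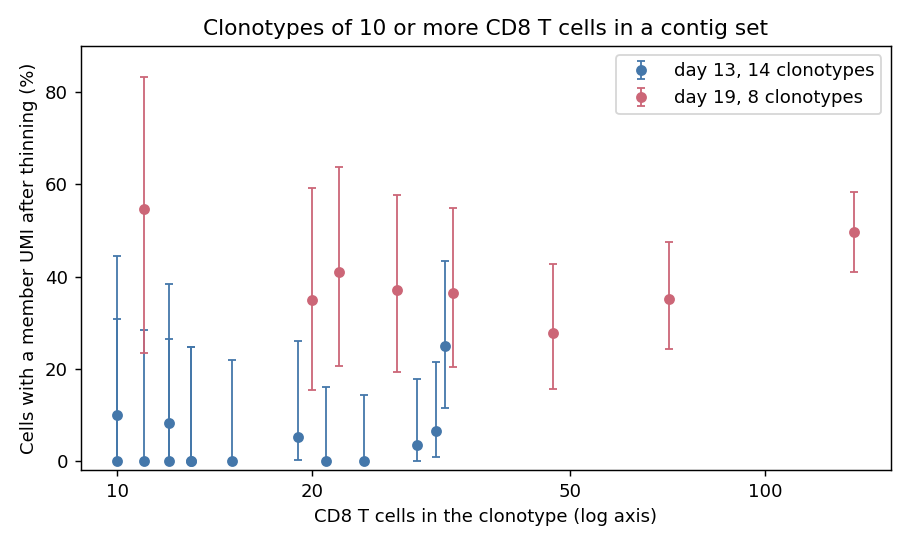
Each point is a clonotype, defined by all its productive chains, with at least 10 CD8 T cells in 1 contig set; the horizontal axis is its number of CD8 T cells (log axis) and the vertical axis the percentage with a member UMI after thinning, with exact 95% binomial intervals. The 8 clonotypes of day 19 lie between 27.7% and 54.5%, and 8 of the 14 at day 13 lie at 0.

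Cycling cells, those with a UMI of Mki67 or Top2a after thinning, gave no clear difference in level at day 19. The sum was 1607 CPM in 481 cycling and 1535 CPM in 1319 other CD8 T cells, a log2 ratio of 0.07 (0.03 to 0.10), higher in 2 of 4 sets. None of the 5 members was past 2-fold higher, where 5.52% of 9359 genes were, and Gzmg (-3.28) was lower with 14 and 221 UMIs, but not without contig set 2 (0.51). The direction turned under 4 alternatives: -0.35 with at least 8000 gene UMIs, -0.46 without barcodes that had 3 or more macrophage UMIs, -0.47 with cycling called from 3 of 10 genes, and -0.21 without contig set 4. The share of positive cells was 23.5% in cycling and 15.0% in other cells, and within the Havcr2-positive Tcf7-negative state it was 42.5% and 42.4%. At day 13 cycling cells held 1901 of the 2339 member UMIs, with 4.82% and 1.65% positive, but 2 cells held 1411 of the 1901. Without them the level in cycling cells was 61.6 CPM. In all other CD8 T cells it was 21.4 CPM, and 10.5 CPM without their 2 highest cells, which held 223 of 438 UMIs.

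The genes most like the members across the 1800 CD8 T cells of day 19 were sought among 7045 genes with a UMI in at least 5% of them. By Pearson's r of log2(thinned UMIs + 1) with the summed members, the 10 highest were Ifitm1 (0.59), Ifitm2 (0.51), S100a4 (0.48), S100a6 (0.45), Gzmb (0.44), Fcer1g (0.40), Capg (0.40), AA467197 (0.39), Tnfrsf9 (0.39) and Pglyrp1 (0.37). Ifitm1 and Ifitm2 encode interferon-induced membrane proteins, S100a4 and S100a6 calcium-binding proteins, and Tnfrsf9 the costimulatory receptor 4-1BB. Ifitm1 ranked first over all these cells: 75.9% of member-positive and 18.5% of other cells had a UMI of it, at 4104 and 658 CPM. Its r was 0.52, 0.63, 0.29 and 0.51 in the 4 sets, which was below that of Gzmb (0.33) and S100a4 (0.38), among others, in set 3 and just below those of Ifitm2 and AA467197 in set 4, and 0.30 at day 13, the highest of the 15 genes named here. Pdcd1 ranked 13, Havcr2 40, Prf1 43, Gzma 75 and Gzmk 2693 of 7045.

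The 5 lowest were Klf2 (-0.29), Zfp36l2 (-0.28), Gramd3 (-0.26), Emb (-0.26) and Fos (-0.25). Klf2 is a transcription factor of resting, recirculating T cells, and 16.4% of positive and 59.5% of other cells had a UMI of it. Tcf7 followed just above these with an r of -0.25. The points share libraries and thinned depth, and the correlations are descriptions.

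**Figure D5:**
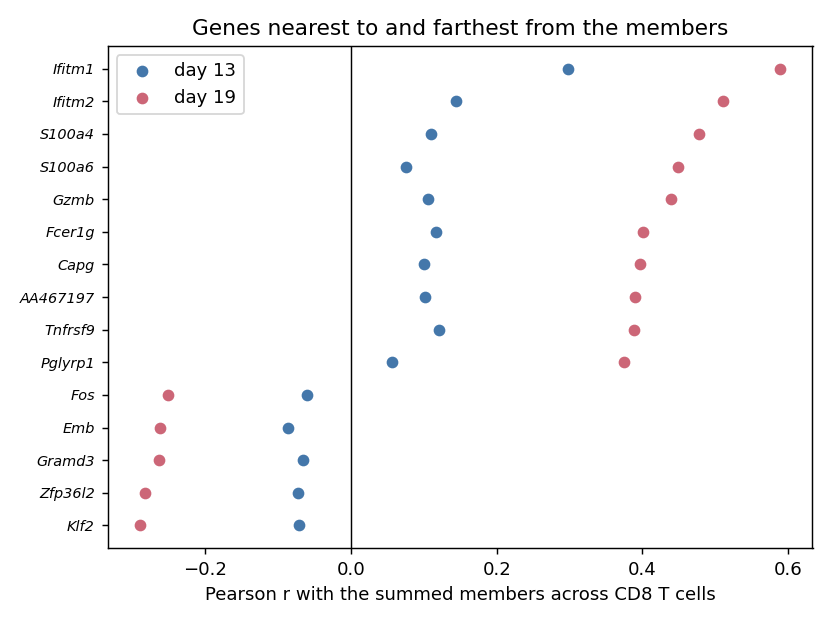
Pearson's r with the summed members across CD8 T cells (horizontal axis) for the 10 genes with the highest and the 5 with the lowest r at day 19, with the value at day 13 beside it. Among the genes drawn, which were picked at day 19, Ifitm1 had the highest r on both days, 0.59 at day 19 and 0.30 at day 13.

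Set against the other CD8 T cells of day 19, the 311 positive ones had more Gzmb, Prf1 and Gzma, but not more of all granule genes. Gzmb was 3523 against 879 CPM (log2 ratio 2.00, 4 of 4 sets), Prf1 219 against 89.9 CPM (1.29, 4 of 4 sets) and Gzma 1169 against 325 CPM (1.85, 3 of 4 sets). Gzmk was at 116 CPM in both, and Gzmm, with 6 UMIs in positive cells, was lower by a log2 ratio of -2.40. Past 2-fold were thus 3 of 16 granule genes higher, where 1.63% of 9359 genes were, and 1 lower, where 4.78% were. Pdcd1 (1.23) and Havcr2 (1.34) were higher, and Tcf7 (-2.60) and Foxp3 (-2.23) lower, in the same comparison. In whole counts Gzmb was detected in 290 of the 296 cells with Gzmc and in 242 of the 246 with Gzmf.

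The antibody tags separated these cells less, but the CD8a tag stood no higher than the isotype control IgG1. Positive cells had a median of 29 UMIs of the PD-1 tag against 28 in other CD8 T cells of day 19, 8 against 7 of TIM-3 (although the pooled share of tag UMIs was lower, at a log2 ratio of -0.61), and 43 against 43 of LAG-3, with median total tag UMIs of 2255 and 2272. The tag of CD39, an ectoenzyme of chronically stimulated cells, had a median of 42 against 35 and was higher in 4 of 4 sets (log2 ratio of the share of tag UMIs 0.36), as was CD44 (0.32). CD62L, a homing receptor of resting cells, was lower in 4 of 4 sets, at a log2 ratio of -1.85 and medians of 1 and 2. The isotype control tags IgG1, IgG2a and IgG2b differed by -0.051 to -0.0028 and had medians of 3 to 6, so that medians of 1 to 8 lie near or below the level of unspecific binding. The CD38 tag gave 292 against 33.1 per 10000 tag UMIs with medians of 8 and 7, so the medians did not show the pooled difference. No tag of CD244 or CD8b was listed.

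Markers of other cells were counted in the same cells. In positive CD8 T cells of day 19 the 10 macrophage and microglia markers summed to 1740 CPM against 2744 in other CD8 T cells, and 0 of 10 were higher, while 29.9% of positive and 27.1% of other cells had at least 3 macrophage UMIs. The 5 T cell markers summed to 4074 against 2911 CPM. The 5 markers of natural killer (NK) cells, which also use granzymes, summed to 191 against 105 CPM, with 3 of 5 higher and Klra4 at 0, and their part in the result was not tested. Of the mast cell and basophil markers, Cpa3, Fcer1a, Mcpt8 and Cma1 were at 0. In barcodes of 1 to 100 gene UMIs, which hold mostly free RNA, Gzmf was at 209 CPM and Gzmc at 125 CPM at day 19, and at 8.57 and 13.4 CPM at day 13.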

How the data were processed

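Values were the raw UMI counts per gene or antibody tag and barcode that the authors deposited, 1 matrix per day, with contig tables of productive TCR chains and their UMI counts. Per the submitters' processing notes, bcl2fastq 2.20, Cell Ranger 4.0.0, STAR 2.7.5c, Seurat, R 4.1.2 and the build mm10 were used. In total, 144565182 gene UMIs were counted for day 13 and 81224453 for day 19.

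Barcodes of the contig tables with at least 5000 gene UMIs and at most 10% mitochondrial UMIs were kept. States and shares used counts thinned to 5000 UMIs with a fixed seed. Levels were summed UMIs per 1000000 gene UMIs, ratios had exact intervals for 2 Poisson counts and shares had Clopper-Pearson intervals at 95%, all for counting error only. A sum of 0 was set to 3 counts, giving a bound. A gene was compared from 100 UMIs over both sums. The ratio and thinning were tested on simulated data. Python 3.11.15, numpy 2.4.6 and scipy 1.17.1 were used.

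Members, lists and comparisons were chosen with earlier results of these data known. Named were the 5 members, 16 granule genes, state genes, the 10 genes of highest and 5 of lowest correlation, listed tags (CD107a was added after the tags were seen) and clonotypes of at least 10 CD8 T cells. Alternatives covered filters, classes, clonotype and cycling rules, means and left-out contig sets.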

Additional observations from a re-analysis of the deposited data

Results flagged for a closer look

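Barcodes outside the contig tables, with the same depth and mitochondrial limits, enter no comparison above and carried the members too. With Cd3 and CD8 UMIs and no Cd4, the summed members were at 56.9 CPM at day 13 (1286 barcodes) and 1235 CPM at day 19 (347 barcodes, 82 positive, 23.6%). With Cd3, Cd4 and CD8 UMIs they were at 30.8 CPM and 529 CPM, in 943 and 458 barcodes of median depth 27408 and 36301.5 UMIs. With none of Cd3, Cd4 or CD8 they were at 60.3 CPM and 770 CPM, in 917 and 314 barcodes, of which 6 and 12 were positive. The highest of these had 1532 member UMIs at day 19. In the 12 positive barcodes of day 19, which were chosen without Cd3 UMIs, NK markers were found in 12 (1427 CPM in sum), macrophage and microglia markers in 6 (1011 CPM), T cell markers in 9 (126 CPM) and mast cell and basophil markers in 3 (30.1 CPM).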

How the results depend on the processing

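Values are log2 ratios of the summed members unless given as shares. CD8 T cells between days: 4.38 and 3.89 with at least 1000 or 8000 gene UMIs, 4.04 without barcodes of more than 1 TRB or 2 TRA chains, 5.18 as a mean over cells, 3.93 over contig sets, and 3.65 to 4.67 leaving out a set. Added after seeing the data were 3.81 without the largest clonotype, taken as its chain set in every contig set, and 6.52 without the 10 highest cells. CD4 between days: 2.07 and 1.39 (1000, 8000), 0.90 with at least 2 class UMIs, 2.75 without barcodes of 3 or more macrophage UMIs, 2.66 and 1.97 as means over cells and sets, and 0.85 to 5.02 leaving out a set. CD8 against CD4: 4.46 (8000), 4.55 (2 class UMIs), 4.10 (chains), 3.88 (macrophage), 3.72 and 3.94 as means, 3.90 and 3.67 for the added alternatives, and 3.04 to 5.34. The Pdcd1-positive states: 6.98 (8000), 5.31 and 5.59 as means, 5.08 without the 10 highest cells, and 5.49 to 6.92. Clonotypes of 3 or more: 2.64 (8000), 2.76 (2 class UMIs), 3.34 (macrophage), 3.12 and 2.54 as means, 2.77 from 2 cells on, 2.77 by all chains, 2.25 without the 10 highest cells, and 1.88 to 3.21.

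Cycling turned to -0.35 (8000), -0.46 (macrophage) and -0.47 (3 of 10 genes), and was 0.028 (2 class UMIs), 0.22 (chains), 0.47 and 0.19 as means, 0.77 from whole counts, 0.23 without the largest clonotype, 0.57 without the 10 highest cells, and -0.21 to 0.53 leaving out a set. For cycling Gzmc turned to -0.20, -0.35, -0.14 and -0.15 (8000, macrophage, 3 of 10 genes, without set 4). Gzme turned to 0.44 (chains), 0.17 (mean over cells), 2.15 (whole counts), 1.70 (10 highest cells) and 0.042 (without set 2), and Gzmg to 3.55, 0.29 and 0.51 (whole counts, 10 highest cells, without set 2). Leaving out a set, their highest or lowest values on the other side were 0.48 for Gzmc, -1.70 for Gzme and -5.45 for Gzmg. In CD4 T cells between days Gzmd turned to -0.15 (2 class UMIs) and -0.79 (without day 19 set 3), and reached 4.31 without day 13 set 3. CD8 against CD4 without the 10 highest cells, Gzmd turned to -1.48 and Gzme to -1.16. The cause was not tested. The share of positive CD8 T cells was 1.12% and 14% at 2 or more UMIs, 0.507% and 11.4% at 5 or more, and 3.95% and 21.3% unthinned, at days 13 and 19. For the summed members 25 values moved by less than their interval, 71 by more and 4 reversed. For single members the counts were 248, 186 and 16. Not every sign change is among these reversals. Gzmc in CD4 T cells between days, whose main interval held 0, went from -0.07 to 3.25 (macrophage) and was counted as moved. No paired analysis was possible because each day is 1 capture. For Gzmg in CD8 against CD4 T cells the 8000-UMI limit gave 0.30, and leaving out a set -2.86 to 6.74.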
